A study of Mus musculus with 18 samples.

Results

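The genes described here carry fatty acids into the cell, attach coenzyme A to them and hold them in the cytosol. The group was set by gene symbol and holds 10 of the 34620 genes in the count tables: the transport protein genes Slc27a1 and Slc27a4, the long-chain acyl-CoA synthetase genes Acsl1, Acsl3, Acsl4, Acsl5 and Acsl6, the bubblegum synthetase gene Acsbg1, and the binding protein genes Fabp5 and Fabp7. RNA-Seq of the ventral dentate gyrus, the hippocampal region whose main neurons are granule cells, gave 6 libraries from male Swiss Webster mice aged 8 to 12 weeks, 2 libraries in each of 3 groups. All 6 libraries came from mice that were themselves wild type for the serotonin 1A receptor (5HT1A). The WT group came from a wild-type lineage bred in parallel. The F1 group had mothers with 1 deleted receptor allele (5HT1A-/+, as were their grandmothers), and by the study's methods their fathers were 5HT1A-/+ as well. The F2 group were offspring of F1 females and wild-type males, so that their maternal grandmother and maternal grandfather were 5HT1A-/+. Each group was drawn from at least 3 litters, how many mice went into a library is not given in the sources used here, and nothing says that the libraries of a group came from separate mice, so the p-values measure the spread between these libraries only. The comparisons ask whether receptor-deficient parents or maternal grandparents go with altered transcripts in offspring that carry no deletion. The parts of the 5HT1A-/+ mother and the 5HT1A-/+ father cannot be told apart in them.

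A fatty acid that enters a cell is trapped there once an acyl-CoA synthetase has joined it to coenzyme A, and only the acyl-CoA can be built into phospholipids, sphingolipids and triglycerides or be oxidised. The fatty acid transport proteins (the Slc27a family) carry such synthetase activity themselves, the Acsl enzymes act on long-chain fatty acids at different membranes, and the fatty acid-binding proteins (Fabp) carry free fatty acids through the cytosol. Brain depends on this step to retain arachidonic and docosahexaenoic acid, which it takes from the blood and which its membranes hold in large amounts.

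Between 26358165 and 33727936 reads per library were assigned to genes. Levels are given as counts per 1000000 assigned reads (CPM) after TMM scaling, differences as log2 fold changes with their standard error (SE), and p-values come from edgeR's exact test adjusted by Benjamini-Hochberg over 17421 genes, with a threshold of 0.01. Of all genes tested, 12.3% passed it in F1 and 12% in F2 against WT. Reads not lying wholly within the exons of a gene made up 12.6% and 14.2% of the WT libraries, 9.18% and 9.84% of the F1 and 10.2% and 11.6% of the F2 libraries, so this share was higher in both WT libraries than in the other 4, and its part in the results below was not tested. All 7 granule cell markers were detected in every library, with summed levels of 1116 to 1124 CPM for WT, 965 to 1202 CPM for F1 and 1309 to 1421 CPM for F2. Markers of astrocytes, oligodendrocytes, microglia, vessels and interneurons were present in every library as well, with none at 0, so the dissected layer held RNA of other cells.

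All 10 genes were protein-coding in GENCODE M1 on mm9, the build of the counts. Slc27a1 lies at chr8:74092826-74110607 and Acsl1 on the same chromosome at chr8:47556395-47621405. Slc27a4 is at chr2:29658154-29673042, Acsl3 at chr1:78654400-78703562, Acsl5 at chr19:55327859-55371117, Acsl6 at chr11:54117300-54178258, Fabp5 at chr3:10012548-10016607 and Fabp7 at chr10:57504687-57508256, all on the plus strand. Acsl4, at chrX:138752536-138825078, and Acsbg1, at chr9:54452684-54509677, are on the minus strand.

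The RefSeq promoter table (GRCm38.p6) held 14 start-site windows for 9 of the 10 genes, each found once in mm9 by exact match, and none for Fabp5. The 250 bases before the start are printed for the genes that passed the threshold against WT, Slc27a1, Acsl4 and Acsbg1, and for Slc27a4 beside its paralogue. Slc27a1 had 3 windows, of which the middle one (chr8:74093246-74093495, 60.8% GC, 1 GC box 139 bases before its start) overlaps an annotated exon and is not printed. They are written 5′ to 3′ on the gene's strand, and capitals mark matches on either strand to one of 3 short motifs. The GC box, a site for factors of the Sp family, reads GGGCGG. The E-box, bound by basic helix-loop-helix factors, was searched in the form CACGTG. The CCAAT box is named by its letters.
Slc27a1, chr8:74092520-74092769, plus strand: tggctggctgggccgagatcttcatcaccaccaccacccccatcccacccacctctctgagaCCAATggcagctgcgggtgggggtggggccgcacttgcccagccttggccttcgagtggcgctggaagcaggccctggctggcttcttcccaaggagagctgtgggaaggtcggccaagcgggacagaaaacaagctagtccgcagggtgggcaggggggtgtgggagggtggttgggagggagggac
Slc27a1, chr8:74094243-74094492, plus strand: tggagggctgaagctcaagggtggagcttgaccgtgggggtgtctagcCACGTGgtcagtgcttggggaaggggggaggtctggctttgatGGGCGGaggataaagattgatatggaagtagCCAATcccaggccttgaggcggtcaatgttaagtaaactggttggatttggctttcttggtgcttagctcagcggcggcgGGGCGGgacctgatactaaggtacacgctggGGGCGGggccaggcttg
Slc27a4, chr2:29657904-29658153, plus strand: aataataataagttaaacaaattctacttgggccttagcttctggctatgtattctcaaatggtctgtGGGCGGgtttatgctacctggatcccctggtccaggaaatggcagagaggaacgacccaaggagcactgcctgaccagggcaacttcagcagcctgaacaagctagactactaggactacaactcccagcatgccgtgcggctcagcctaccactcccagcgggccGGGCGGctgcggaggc
Acsl4, chrX:138825079-138825328, minus strand: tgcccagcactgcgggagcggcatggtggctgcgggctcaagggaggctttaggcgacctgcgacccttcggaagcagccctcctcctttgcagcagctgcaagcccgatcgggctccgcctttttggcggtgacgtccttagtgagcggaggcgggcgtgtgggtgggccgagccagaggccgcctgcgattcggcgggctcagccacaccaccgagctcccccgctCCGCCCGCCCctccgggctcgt
Acsbg1, chr9:54509693-54509942, minus strand: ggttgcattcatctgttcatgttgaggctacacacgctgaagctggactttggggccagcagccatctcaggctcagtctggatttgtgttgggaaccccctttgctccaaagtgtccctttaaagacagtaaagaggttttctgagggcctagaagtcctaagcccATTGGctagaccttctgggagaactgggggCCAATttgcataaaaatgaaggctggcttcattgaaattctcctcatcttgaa
The printed Slc27a1 windows differed from each other: the upstream one, with 66.4% GC, held 1 CCAAT box 188 bases before the start, and the downstream one, which lies inside the annotated gene, held 3 GC boxes, 1 CCAAT box and 1 E-box. Slc27a4 had GC boxes 182 and 16 bases before its start, and Acsl4, at 70.8% GC, had 2 that overlap, 22 and 18 bases before its start. Acsbg1 was the poorest of the 5 in CpG, with 1 CpG and 48.4% GC against a median of 52.4% over all windows, and had CCAAT boxes 83 and 53 bases before its start. Of 32851 windows, 32.7% held a GC box, 33.8% a CCAAT box and 6.02% an E-box, so these matches describe the letters and mark no known site. None of the 5 held the nuclear receptor half-site AGGTCA, which 14% of all windows held. The TATA box, searched as TATAAA, was in none of them and in 12.4% of all windows. The same was true of the sterol response element, searched as TCACNCCAC and present in 1.05% of all windows.

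Slc27a1 was lower in F1 and in F2 males than in WT males, and Slc27a4 was not. Slc27a1 encodes FATP1, a transport protein with acyl-CoA synthetase activity that is best known from muscle and adipose tissue and is also made in brain. Its level was 104.51 and 77.38 CPM in WT males, 56.32 and 52.20 CPM in F1 males and 58.55 and 60.55 CPM in F2 males. Both WT libraries stood above the other 4, and the WT pair also differed more from each other than either pair of offspring did. The level fell by 40.4% in F1 (log2 fold change −0.75, SE 0.14, adjusted p = 7.66e-06) and by 34.6% in F2 (−0.61, SE 0.14, adjusted p = 0.000398). Without the first WT library, the higher of the pair, the difference was −0.51 in F1 (adjusted p = 0.00845) and −0.37 in F2 (adjusted p = 0.0854). The F2 call also missed 0.01 without the first or the second F2 library (adjusted p = 0.0422 and 0.0178) and in edgeR's quasi-likelihood test (adjusted p = 0.011), while the F1 call held without any 1 library. The study names Slc27a1 among the lipid genes it drew from its calls in these samples, so the call here is no independent evidence. The study also lists Slc27a1 among genes both expressed and methylated differently in F1 and F2, and methylation was not analysed here. In dissected tissue, fewer cells of a type and less RNA per cell cannot be told apart.

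Slc27a4 encodes FATP4, a broadly made transport protein of the endoplasmic reticulum that activates long and very long fatty acids. It measured 75.75 and 58.26 CPM in WT, 85.20 and 91.35 CPM in F1, and 68.75 and 75.92 CPM in F2. The F1 libraries lay above both WT libraries, while the F2 libraries fell partly inside the WT range. Its log2 fold change was 0.40 in F1 (SE 0.14, adjusted p = 0.0255) and 0.11 in F2 (SE 0.14, adjusted p = 0.634), neither past the threshold, and the F1 value was 0.60 without the first WT library (adjusted p = 0.00231) and 0.23 without the second (adjusted p = 0.344).

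The read counts of this pair of transport proteins can be set against each other within a library, which removes differences in depth and scaling. This ratio was chosen after the values were seen and is a description. Slc27a1 had 1.38 and 1.33 reads for each read of Slc27a4 in WT, against 0.661 and 0.571 in F1 and 0.852 and 0.798 in F2. The more abundant transcript of the pair by reads was Slc27a1 in both WT libraries and Slc27a4 in the other 4. Per kilobase of the longest coding transcript, the ratio was 2.00 and 1.93 in WT, 0.959 and 0.829 in F1, and 1.24 and 1.16 in F2, so that the order of the pair turned in F1 only on this scale. The WT libraries differed in both genes in the same direction, and their ratios lay close together.

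**Figure D1:**
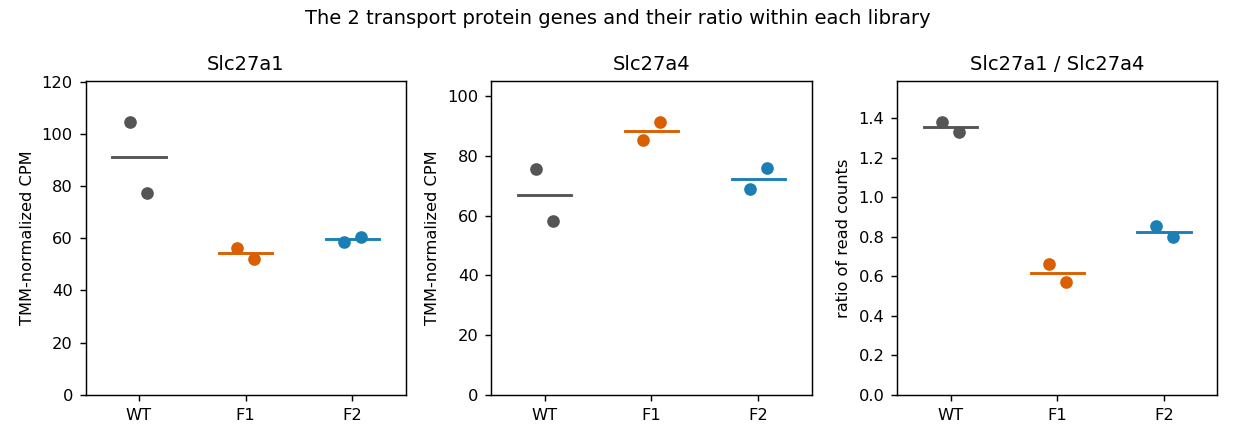
Level of Slc27a1 and of Slc27a4 in TMM-normalized CPM, and the ratio of their read counts, by group. Points are libraries and bars are group means. The ratio was 1.38 and 1.33 in the WT libraries and below 1 in all 4 F1 and F2 libraries.

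Of the 5 long-chain acyl-CoA synthetase genes, Acsl4 rose in F1 and none passed edgeR's exact test in F2, where 2 had an unadjusted p under 0.05, DESeq2 called 1 and the quasi-likelihood test none. All 5 had positive fitted log2 fold changes in both generations, which spanned 0.18 to 0.42 in F1 and 0.07 to 0.40 in F2. Acsl4, an X-linked gene whose enzyme prefers arachidonic acid, was at 84.42 and 91.00 CPM in WT, 117.18 and 117.13 CPM in F1, and 108.91 and 93.22 CPM in F2. The F1 libraries agreed closely and lay above the other 4, and the second F2 library lay just above the WT range. Acsl4 was 33.6% higher in F1 (log2 fold change 0.42, SE 0.12, adjusted p = 0.00653) and 0.20 higher in F2 on the log2 scale (SE 0.12, adjusted p = 0.247). The F1 call did not hold at 0.01 in the quasi-likelihood test (adjusted p = 0.0195) or without any 1 of the WT or F1 libraries (adjusted p from 0.0214 to 0.11).

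Acsl3, an enzyme of the endoplasmic reticulum and lipid droplets, had 112.69 and 125.85 CPM in WT, 132.07 and 154.73 CPM in F1, and 153.66 and 161.12 CPM in F2. All 4 libraries of the offspring groups lay above both WT libraries. The log2 fold change was 0.27 in F1 (SE 0.13, adjusted p = 0.115) and 0.40 in F2 (SE 0.13, adjusted p = 0.0112), the latter just outside the threshold. DESeq2 placed the F2 value inside it (adjusted p = 0.00813), as did the exact test without the first or the second F1 library, which are not part of that contrast (adjusted p = 0.00398 and 0.00408). The quasi-likelihood test did not (adjusted p = 0.0277), nor did the exact test without any 1 of the WT or F2 libraries (adjusted p from 0.0182 to 0.184), and 6 of 18 alternatives called it in all.

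Acsl6, which favours docosahexaenoic acid and is abundant in neurons, had the highest read level of the group in every library, with 167.61 to 172.67 CPM for WT, 179.71 to 205.90 CPM for F1 and 194.04 to 194.38 CPM for F2. Its difference of 0.18 on the log2 scale in F1 (adjusted p = 0.286) and of 0.19 in F2 (adjusted p = 0.258) did not pass the threshold although no offspring library fell within the WT range. Acsl1, the main synthetase of heart and adipose tissue, ranged from 35.89 to 39.88 CPM in WT and from 42.62 to 48.42 CPM in the other 4 libraries, with log2 fold changes of 0.28 (adjusted p = 0.104) and 0.27 (adjusted p = 0.138). Acsl5, an enzyme of mitochondria and the endoplasmic reticulum, measured 59.39 to 60.39 CPM for WT, 66.18 to 73.06 CPM for F1 and 60.36 to 65.58 CPM for F2, and its fold changes of 0.22 (adjusted p = 0.191) and 0.07 (adjusted p = 0.733) did not pass either.

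Summed over the 5 Acsl genes, the level was 461 and 489 CPM in WT, 540 and 598 CPM in F1, and 571 and 552 CPM in F2, so both WT sums lay below the other 4. Per kilobase of coding transcript, Acsl3 held the largest share of the 6 synthetases, Acsbg1 included, in every library, with 26.1% to 27.9% in WT, 26.4% to 27.5% in F1 and 28.02% to 30.2% in F2. Acsl1 held the smallest, with 6.55% to 7.38% over the 6 libraries. The share of Acsl5 was 13.3% to 14.2% in WT and 11.5% to 12.1% in F2, the opposite direction to that of Acsbg1, which was 18.4% to 19.8% in WT and 21.1% to 21.3% in F2. The share of Acsl4 was highest in F1, at 12.6% to 14.2%.

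Acsbg1 rose in F2. It encodes the bubblegum acyl-CoA synthetase, which acts on long and very long fatty acids and whose transcript in brain is found mainly in astrocytes. It measured 77.07 and 74.91 CPM in WT, 85.30 and 99.68 CPM in F1, and 104.53 and 102.39 CPM in F2. The groups did not overlap, with WT lowest and F2 highest. The level was 36.1% higher in F2 (log2 fold change 0.45, SE 0.12, adjusted p = 0.00322), and the F1 difference of 0.28 did not pass the threshold (SE 0.12, adjusted p = 0.0824). The F2 call was not kept at 0.01 by the quasi-likelihood test (adjusted p = 0.0145) or without any 1 of the WT or F2 libraries (adjusted p from 0.0351 to 0.0727).

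Astrocyte markers moved in the same direction as Acsbg1. The 13 markers, of which Acsbg1 is not one, summed to 3480 and 3665 CPM in WT, 3992 and 4713 CPM in F1, and 5151 and 4531 CPM in F2, with none at 0, and 6 of the 13 passed the threshold as higher in F2. In F1, 1 of the 13 was called higher and 1 lower. Over all genes tested, 3.77% were called higher in F1 and 3.86% in F2. Neither this list nor the lists below were tested against these shares. For each 1000 CPM of the marker sum, Acsbg1 had 22.1 and 20.4 CPM in WT, 21.4 and 21.2 CPM in F1, and 20.3 and 22.6 CPM in F2, so that on this scale the F1 libraries lay within the WT range and the F2 libraries lay just below and just above it. Acsl3 gave the same order on this scale, with 32.4 and 34.3 CPM in WT, 33.1 and 32.8 CPM in F1, and 29.8 and 35.6 CPM in F2. The flat ratio is thus not particular to Acsbg1. The part of the astrocyte markers in the Acsbg1 result was not tested. Microglia markers, which summed to 162 to 164 CPM for WT, 191 to 216 CPM for F1 and 214 to 245 CPM for F2 with 5 of 10 called higher in F2, moved the same way. Oligodendrocyte precursor markers had sums of 106 and 118 CPM in WT, 163 and 170 CPM in F1, and 150 and 181 CPM in F2, with 3 of 5 called higher in F1 and 2 in F2. The sums of endothelial and pericyte markers were 224 to 250 CPM in WT and 265 to 334 CPM over the 4 offspring libraries, with 1 of 12 called higher in F1 and 2 in F2. CA pyramidal cell markers summed to 157 to 167 CPM for WT, 168 to 209 CPM for F1 and 200 to 203 CPM for F2, with 1 of 6 called higher in F1 and 2 in F2. Interneuron markers, at 681 to 752 CPM in WT and 664 to 914 CPM in the other libraries, overlapped between WT and F1, with 1 of 10 called higher in F1 and 2 in F2. The 9 progenitor and immature neuron markers summed to 95.6 to 118 CPM for WT, 103 to 110 CPM for F1 and 109 to 133 CPM for F2, so these groups overlapped. Oligodendrocyte markers varied within groups, from 1162 to 2099 CPM for WT, 2371 to 3153 CPM for F1 and 1637 to 3067 CPM for F2, with 4 of 12 called higher in F1 and 2 in F2, and the part of all these lists in the values of the 10 genes was not tested.

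**Figure D2:**
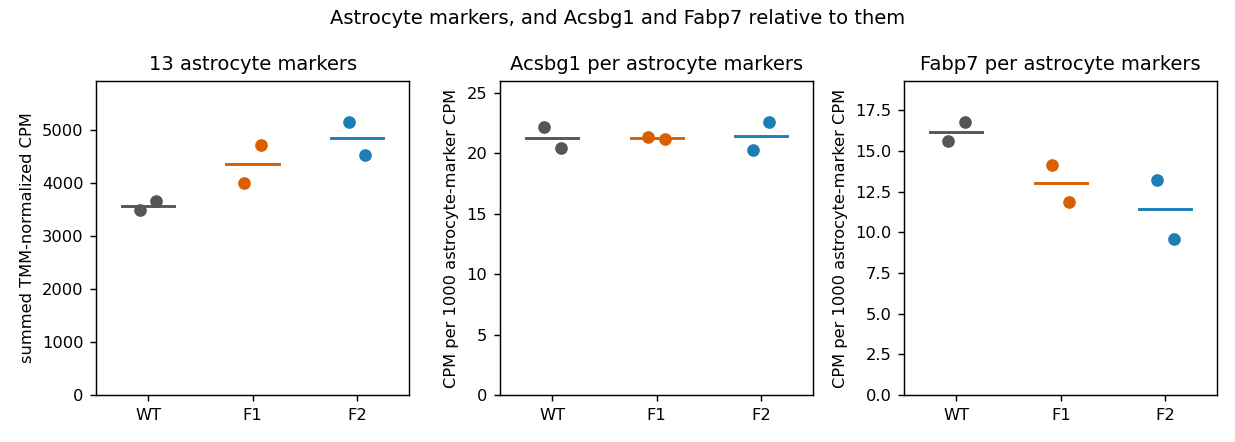
Summed CPM of 13 astrocyte markers, and Acsbg1 and Fabp7 in CPM per 1000 CPM of that sum, by group. Points are libraries and bars are group means. The marker sum is lowest in the WT libraries, Acsbg1 relative to it lies between 20.3 and 22.6 in every library, and Fabp7 relative to it is highest in the WT libraries.

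Of the binding proteins, neither Fabp5 nor Fabp7 passed the threshold in either generation. Fabp5, the epidermal type, which binds fatty acids and endocannabinoids in neurons, glia and vessels, was at 35.74 and 46.04 CPM in WT, 60.51 and 52.56 CPM in F1, and 45.24 and 48.15 CPM in F2. Both F1 libraries lay above the other 4, and the F2 libraries overlapped the upper WT value. The log2 fold change in F1 was 0.47 (SE 0.14) with an adjusted p of 0.0101, just outside the threshold, and in F2 it was 0.19 (SE 0.15, adjusted p = 0.382). The F1 value ranged from 0.30 (adjusted p = 0.238) without the first WT library to 0.67 (adjusted p = 0.000929) without the second, and it was 0.57 (adjusted p = 0.00987) without the second F1 library. Of the 938 stretches of 50 bases in the longest coding transcript of Fabp5, 409 (43.6%) had another exact copy elsewhere in mm9, so the 50-base reads of this gene could be lost to or shared with copies, against 2.40% for Slc27a1, 0.0780% for Acsl1 and 0% for the other 7 genes.

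Fabp7, the brain type, is made by astrocytes and neural progenitors and prefers docosahexaenoic acid. Its libraries gave 54.21 and 61.50 CPM in WT, 56.32 and 56.02 CPM in F1, and 68.08 and 43.51 CPM in F2. The F1 libraries fell inside the WT range, and the F2 libraries held both the highest and the lowest value of the 6. The fold changes were −0.04 in F1 (SE 0.17, adjusted p = 0.910) and −0.05 in F2 (SE 0.17, adjusted p = 0.886). Relative to 1000 CPM of astrocyte markers, Fabp7 had 15.6 and 16.8 CPM in WT, 14.1 and 11.9 CPM in F1, and 13.2 and 9.60 CPM in F2, so on this scale Fabp7 was lower in each of the 4 offspring libraries than in both WT libraries. The same held for Slc27a1 (21.1 and 30.0 CPM in WT, 11.1 to 14.1 CPM in the offspring) and Acsl6 (47.1 and 48.2 CPM in WT, 37.7 to 45.0 CPM in the offspring), and not for the other 7 genes. This comparison was made after the values were seen and was not tested. The marker sum used as divisor was lowest in WT, at 3480 and 3665 CPM against 3992 to 5151 CPM in the offspring. A gene whose CPM did not change therefore comes out highest in WT on this scale. The share of all genes that do so was not computed.

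**Figure D3:**
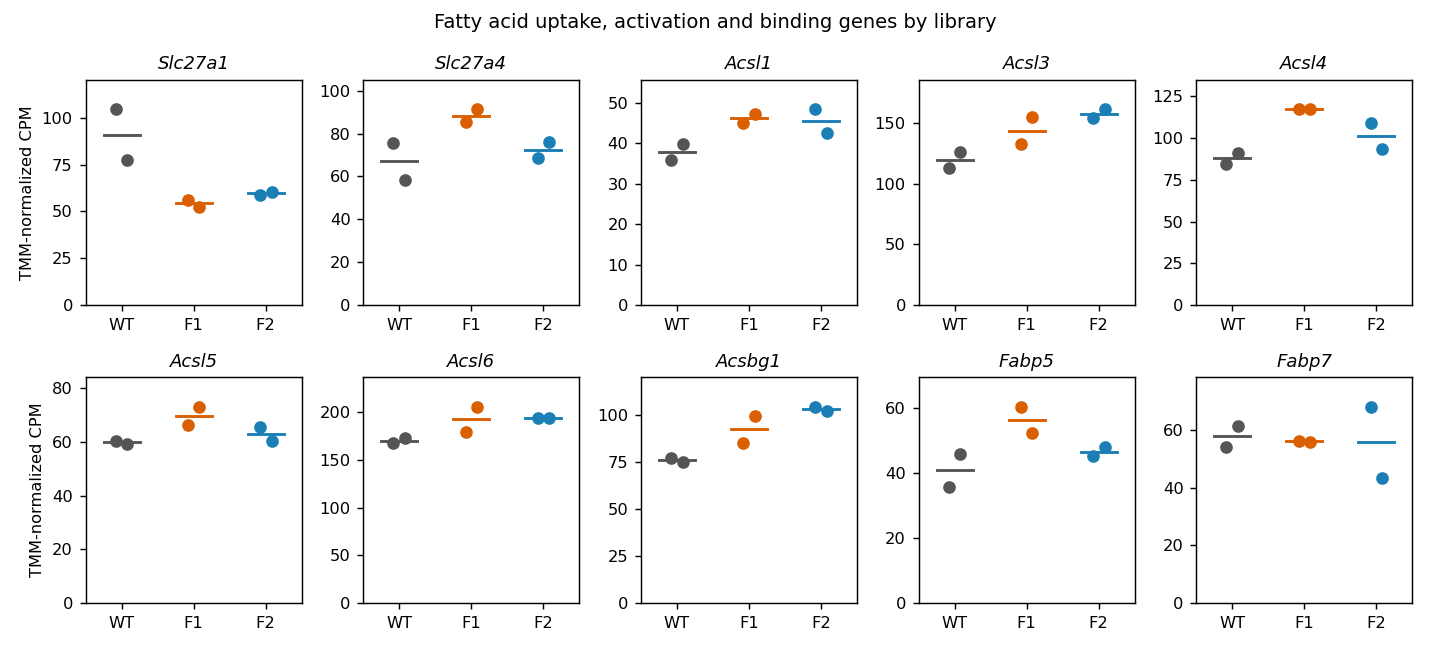
TMM-normalized CPM of the 10 genes by group, each panel on its own axis from 0. Points are libraries and bars are group means. Slc27a1 is the only panel in which both WT libraries lie above all others, and Fabp7 shows the widest spread within F2.

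Over the whole group, 2 of 10 genes were called in each generation: Slc27a1 lower and Acsl4 higher in F1, and Slc27a1 lower and Acsbg1 higher in F2. Beside 12.3% and 12% of all genes tested, 2 of 10 lies near the background and is no result about the group. The calls among all genes were mostly lower, with 8.54% lower and 3.77% higher in F1 and 8.1% lower and 3.86% higher in F2. At a threshold of 0.05, 4 of the 10 genes passed in F1, with Slc27a4 and Fabp5 added, and 3 in F2, with Acsl3 added, against 20.8% and 20.7% of all genes. Without 1 library at a time, the number called at 0.01 was 1 or 2 in F1 and 0 to 3 in F2, with 0 in F2 without the first WT library or either F2 library. The quasi-likelihood test called 1 of the 10 in F1, Slc27a1, and 0 in F2, where 4 had an unadjusted p under 0.05, beside 5.91% and 5.72% of all genes. The median log2 fold change was 0.27 in F1 and 0.19 in F2 over the 10 genes, beside 0.01 and 0.00 over all genes tested. Both WT libraries lay apart from both F1 libraries in 9 of the 10 genes and from both F2 libraries in 6, where the share over all genes was 60.4% and 63%. The F1 and F2 comparisons share the WT libraries, so their values are not independent of each other.

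**Figure D4:**
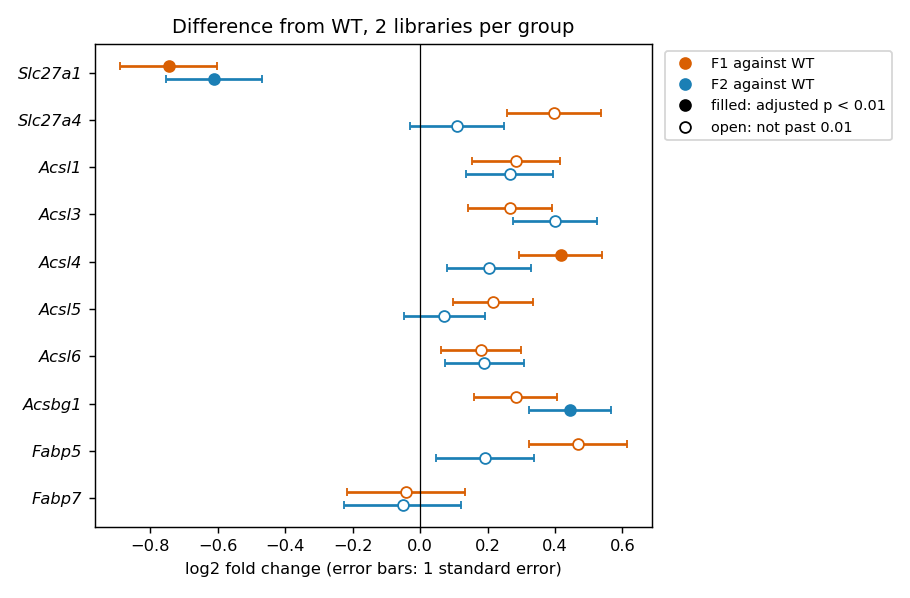
Log2 fold change of each of the 10 genes in F1 and F2 against WT, with bars of 1 SE. Filled points passed an adjusted p of 0.01. Slc27a1 lies below 0 in both generations, Fabp7 lies at 0, and the other 8 genes lie above 0, of which Acsl4 in F1 and Acsbg1 in F2 are filled.

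Between the generations themselves, none of the 10 genes was called by the exact test, by the quasi-likelihood test or by DESeq2, and 1, Slc27a4, had an unadjusted p under 0.05. Over all genes 0.74% were called by the exact test and 0.0115% by the quasi-likelihood test. The F1 and F2 libraries did not overlap in 6 of the 10 genes, where the share over all genes was 39.1%. Slc27a4 showed the largest difference, −0.29 in F2 against F1 (adjusted p = 0.5225), followed by Fabp5 (−0.28, adjusted p = 0.605) and Acsl4 (−0.21, adjusted p = 0.677). Slc27a1 differed by 0.13 (adjusted p = 0.951) and Acsbg1 by 0.16 (adjusted p = 0.853). The generation in which Acsl4 or Acsbg1 passed the threshold is therefore not shown to differ from the other.

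Levels can be ordered between genes per kilobase of the longest coding transcript. In WT, Fabp7 was highest with 65.7 ± 5.85 CPM per kilobase (SD, n = 2 for all values here), followed by Fabp5 (41.4 ± 7.38), Acsl3 (37.3 ± 2.91), Slc27a1 (32.5 ± 6.87), Acsl6 (29.3 ± 0.616) and Acsbg1 (26.4 ± 0.530). Acsl5 (19.0 ± 0.225), Acsl4 (16.6 ± 0.881), Slc27a4 (16.5 ± 3.05) and Acsl1 (9.73 ± 0.726) were the lowest. The neighbours Fabp5 and Acsl3, Acsl3 and Slc27a1, Slc27a1 and Acsl6, and Acsl4 and Slc27a4 overlapped between libraries, and the other neighbours did not. Slc27a1 stood 4th in WT, 9th in F1 with 19.4 ± 1.04 CPM per kilobase and 6th in F2 with 21.3 ± 0.506, while Acsl1 was lowest in each group. The place of Fabp5 depends on the transcript taken: over all annotated exon bases, which include a retained intron, it ranked 9 of 10. Copies elsewhere in mm9 also matched 43.6% of its 50-base stretches, against 0% for Fabp7. Reads lost to or shared with these copies would change its level, so its place relative to Fabp7 is not settled.

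The 3 genes whose pattern over the 6 libraries came nearest to Slc27a1, by the root mean square difference of log2 CPM centred on each gene's mean among 11609 genes, were 2310021P13Rik (0.0446), Gtf3c2 (0.0475) and Stk11ip (0.0492). Gtf3c2, for instance, had 120.5 and 98.99 CPM in WT, 67.31 and 64.77 CPM in F1, and 69.99 and 72.24 CPM in F2. For Fabp7 the nearest were Ripk2 (0.0497), Zfp51 (0.0637) and Itga8 (0.0693), each with its highest value in the first F2 library and its lowest in the second.

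Of 64 other genes of fatty acid uptake, activation, binding, hydrolysis and sensing, 50 had enough reads to be tested, and 2 were called in each generation, beside 12.3% and 12% of all genes. The quasi-likelihood test called none of the 4 at 0.01, with an adjusted p of 0.0104 for Got2 and 0.0287 for Crabp2 in F1 and of 0.0311 for Slc27a3 and 0.0223 for Lpl in F2. Among 9 genes of uptake, Got2, the mitochondrial aspartate aminotransferase that has also been described as a fatty acid-binding protein of the plasma membrane, rose in F1 (log2 fold change 0.47, SE 0.12, adjusted p = 0.00114), and Slc27a3 fell in F2 (−0.72, SE 0.21, adjusted p = 0.00714). Slc27a3, a further member of the transport protein family, measured 25.8 and 15.8 CPM in WT, 18.8 and 17.1 CPM in F1, and 11.96 and 13.25 CPM in F2. Its first WT library stood well above the other 5, and the second lay below both F1 libraries. Without that first library the F2 difference was −0.32 (adjusted p = 0.377), and it also missed 0.01 without either F2 library (adjusted p = 0.164 and 0.0511). For Got2, which measured 147.1 and 127.7 CPM in WT and 197.9 and 183.9 CPM in F1, the adjusted p was 0.0595 without the second WT library and 0.0167 without the first F2 library.

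Lpl, the lipoprotein lipase that releases fatty acids from circulating triglycerides before uptake, had 133.9 and 147.9 CPM in WT, 193.7 and 168.6 CPM in F1, and 84.5 and 111.5 CPM in F2. The 3 groups did not overlap, with F1 highest and F2 lowest. Lpl fell in F2 against WT (−0.52, SE 0.14, adjusted p = 0.00335), did not pass the threshold in F1 (0.36, SE 0.14, adjusted p = 0.0544), and was the only 1 of the 50 called between the generations. The F2 difference from WT was −0.33 without the first F2 library (adjusted p = 0.24), −0.59 without the first WT library (adjusted p = 0.0159) and −0.44 without the second (adjusted p = 0.0732). Crabp2, a retinoic acid-binding protein of the same family as the Fabp genes, fell in F1 (−1.01, SE 0.29, adjusted p = 0.00591) from WT levels of 3.15 and 4.61 CPM to 1.91 CPM in each F1 library, and measured 4.26 and 2.90 CPM in F2. DESeq2 gave an adjusted p of 0.0256 for that fall, and it was −0.71 without the second WT library (adjusted p = 0.19) and about as large without either F1 library (adjusted p = 0.0418 and 0.0587). No gene of 4 further lists was called in either generation by the exact test, the quasi-likelihood test or DESeq2. They held 11 tested genes listed as acyl-CoA synthetases, 7 acyl-CoA-binding proteins, 13 thioesterases and 7 genes listed as fatty acid-sensing nuclear receptors. The synthetase list includes Dip2a, Dip2b and Dip2c, and the receptor list includes the coactivator gene Ppargc1a, which is no receptor. Of these 38 genes, 7 had an unadjusted p under 0.05 in F1 and 7 in F2, beside 5671 and 5647 of all 17421 genes.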

How the data were processed

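RNA-Seq read counts per gene were deposited by the authors for 6 libraries. Per the labels and the study's methods, the ventral granule cell layer was dissected from sections, libraries were made with a TruSeq kit and sequenced as single 50-base reads, reads were aligned to mm9 with TopHat (the submitters' notes name TopHat2 2.0.2 and Bowtie 1.0.0), and HTSeq counted reads lying wholly within a gene's exons; strand use is not given in the sources used here. Reads that HTSeq assigned to no gene, 35.3% to 46.6% of a library's total, were left out of library sizes. The 12 methylation samples of the series were not analysed here.

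Genes were kept by filterByExpr (minimum count 10; 17421 of 34620), scaled by TMM, and groups were tested with edgeR 4.0.16 (exact test, R 4.3.3), with common and tagwise dispersion from all 6 libraries and Benjamini-Hochberg adjustment over all genes tested (threshold 0.01). The common dispersion of 0.0113 equals a coefficient of variation of 10.6% between libraries. The quasi-likelihood and likelihood-ratio tests of edgeR, DESeq2 1.42.0, other scalings, no filter, other dispersions, a threshold of 0.05 and leaving out each library were alternatives. The procedure was tested on simulated data. The main simulation used larger changes than any of the 10 genes showed, and the same dispersion for all genes. It does not show how often changes of the size seen here are found. Replicate libraries differed by more than sampling noise. Replicate numbers gave no sign of pairing the libraries: differences between replicates correlated at −0.0269 for WT and F1, −0.083 for WT and F2 and −0.182 for F1 and F2. These correlations cannot show that no factor was shared between libraries of different number.

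The genes and lists were chosen with earlier results of these data known. All 10 genes were named whatever their values, of the 64 related genes those with an adjusted p under 0.01 in F1 or F2, and for Slc27a1 and Fabp7 the 3 genes nearest in pattern with a mean of at least 5 CPM; marker lists were given as counts and sums. Positions came from GENCODE M1 on mm9, and promoter windows from RefSeq (GRCm38.p6) were located in mm9 by exact match. Acsl3 shares 206 exon bases with Utp14b on the same strand and Acsl6 shares 202 with Gm12224 on the other.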

Additional observations from a re-analysis of the deposited data

Results flagged for a closer look

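Lpl differed between the generations. Its log2 fold change in F2 against F1 was −0.89 (SE 0.14, edgeR exact test, adjusted p = 7.9e-07), with both F2 libraries below both F1 libraries. Against WT it was 0.36 in F1 and −0.52 in F2. The adjusted p was 0.0242 in the quasi-likelihood test, and without the first F2 library the difference was −0.70 (adjusted p = 0.0115).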

How the results depend on the processing

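With 2 libraries per group, counts of calls depended on the test. At 0.01 the quasi-likelihood test called 1029 genes in F1, 997 in F2 and 2 in F2 against F1, where the exact test called 2144, 2084 and 129. Of the 10 genes the quasi-likelihood test called 1 in F1 (Slc27a1) and 0 in F2. Unadjusted, 4 of the 10 had an exact-test p under 0.05 in F2, beside 5647 of all 17421 genes. At 0.05 the exact test called 3623, 3606 and 230 genes, and 4 of the 10 in F1. Scaling by library size alone left 1 of the 10 in F1. Without 1 library at a time, 988 to 2043 genes were called in F1, 703 to 2585 in F2 and 52 to 223 in F2 against F1, and 1 to 2 and 0 to 3 of the 10. The cause of these changes was not tested.

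The replicate numbers gave no sign of pairing the libraries, and factors shared between libraries of different number are not known. With the replicate number as a block, the quasi-likelihood test called 848, 758 and 9 genes and, of the 10, 1 in F1 and 0 in F2, and the likelihood-ratio test with the block called 1 of the 10 in F1. With the F2 numbers crossed, an alternative chosen after seeing the data, the block gave 1340 genes in F1 with 1 of the 10, 1445 in F2 with 2 of the 10 (Slc27a1 and Acsbg1), and 27 in F2 against F1.

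Signs turned in differences that did not pass the threshold. Without 1 library at a time, the log2 difference in F1 ranged from −0.51 to 0.19 for Slc27a3 and from −0.1286 to 0.0614 for Fabp7. In F2 it ranged from −0.0570 to 0.32 for Slc27a4, from −0.405 to 0.24 for Fabp7 and from −0.41 to 0.19 for Crabp2 (0.15 without the second F2 library), and Fabp7 was 0.0512 without the second WT library. In F2 against F1 it ranged from −0.1109 to 0.0683 for Acsl1 (0.0188 without the second F1 library), from −0.0866 to 0.114 for Acsl6 and from −0.36 to 0.28 for Fabp7, which was 0.0086 with upper-quartile scaling and 0.0046 by library size alone. Of the other values for single genes, 681 kept their direction and their side of the threshold, 50 no longer passed it and 12 newly did.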
